A study of Mus musculus with 10 samples.

Results

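Bacterial products are sensed by a small set of proteins, and 10 of their genes were followed in the liver: *Lbp*, *Cd14*, *Ly96*, *Tlr4*, *Tlr2*, *Tlr5*, *Tlr3*, *Myd88*, *Nod1* and *Pglyrp2*. They were chosen by name, with earlier results of these data known, and all 10 were found among the 12147 genes tested. Whole livers came from wild-type germ-free (GF) C57BL/6 mice, which carry no gut microbiota. Of these, 5 mice received microbiota-derived extracellular vesicles (MEV, GF+MEV), small membrane particles isolated from control specific-pathogen-free mice, by mouth at 80 μg in phosphate-buffered saline (PBS), and 5 received PBS alone (GF+PBS). Both groups were dosed 2 times per week for 3 weeks. RNA was sequenced with 1 library per mouse. The age and sex of the germ-free mice and the time from the last dose to collection were not given in the sources used here. The labels do not say whether the mice of a group shared a cage or litter. The p-values weigh each group difference against the spread between livers within groups, and take the 10 livers as independent. A cage or litter shared by a group could not be told apart from its treatment. A whole liver mixes hepatocytes with macrophages, endothelial and other cells, and fewer cells of a type cannot be told apart from less RNA per cell.

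Lipopolysaccharide (LPS), the outer membrane lipid of Gram-negative bacteria, is lifted from membranes by LBP, a plasma protein made mainly by hepatocytes. LBP hands it to CD14, which is carried on macrophages and other cells, and CD14 passes it to the complex of TLR4 with MD-2, the product of *Ly96*. Other Toll-like receptors (TLR) read other ligands, with lipoproteins sensed by TLR2, flagellin by TLR5 and double-stranded RNA by TLR3. MyD88 is the adaptor that links most of these receptors, but not TLR3, to NF-kB. Peptidoglycan, the cell wall polymer, is handled apart from the TLRs. NOD1 senses its diaminopimelic acid peptides inside cells, and PGLYRP2 is an amidase secreted by hepatocytes that cleaves it.

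RefSeq promoters of GRCm38.p6, from 250 bases before to 50 bases after each start, were matched for 6 of the 10 genes. Those of *Lbp*, *Cd14*, *Tlr4* and *Ly96* were not analysed here. The promoters of *Pglyrp2* and *Nod1* are printed because both genes passed the test below, and that of *Tlr3* because it lay closest to the threshold among those that did not. They run 5′ to 3′ on the minus strand, at chr17:32420926-32421225 for *Pglyrp2*, chr6:54972563-54972862 and chr6:54971612-54971911 for the starts of *Nod1*, and chr8:45410331-45410630 for *Tlr3*. Capitals mark matches to an NF-kB like motif or a C/EBP like motif, given below.
Pglyrp2: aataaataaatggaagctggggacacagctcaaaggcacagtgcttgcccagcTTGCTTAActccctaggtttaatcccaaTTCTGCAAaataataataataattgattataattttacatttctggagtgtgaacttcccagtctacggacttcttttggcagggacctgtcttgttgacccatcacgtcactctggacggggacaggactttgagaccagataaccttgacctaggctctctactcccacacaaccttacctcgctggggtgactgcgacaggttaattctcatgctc
Nod1, start 1: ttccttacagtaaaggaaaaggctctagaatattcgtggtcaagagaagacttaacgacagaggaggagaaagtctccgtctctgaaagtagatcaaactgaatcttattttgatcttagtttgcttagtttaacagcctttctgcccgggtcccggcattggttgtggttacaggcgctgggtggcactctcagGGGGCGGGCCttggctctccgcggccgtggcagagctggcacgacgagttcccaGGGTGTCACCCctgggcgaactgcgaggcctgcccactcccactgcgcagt
Nod1, start 2: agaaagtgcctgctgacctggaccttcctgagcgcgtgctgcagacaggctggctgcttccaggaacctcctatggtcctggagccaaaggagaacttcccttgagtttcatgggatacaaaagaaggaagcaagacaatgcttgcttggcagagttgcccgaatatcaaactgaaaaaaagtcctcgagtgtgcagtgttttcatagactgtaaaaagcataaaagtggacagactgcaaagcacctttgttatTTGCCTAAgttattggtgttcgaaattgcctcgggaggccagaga
Tlr3: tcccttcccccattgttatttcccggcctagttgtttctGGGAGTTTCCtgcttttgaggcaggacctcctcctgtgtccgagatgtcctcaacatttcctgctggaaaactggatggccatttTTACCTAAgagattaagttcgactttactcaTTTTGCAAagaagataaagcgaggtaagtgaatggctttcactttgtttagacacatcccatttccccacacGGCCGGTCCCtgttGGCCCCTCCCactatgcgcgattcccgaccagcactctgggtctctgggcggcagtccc

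Motifs were searched by their letters on both strands, and overlapping matches of a motif were counted separately. A gene was counted if any of its promoters matched, and *Nod1* had 2, whereas the shares over all promoters are per promoter. The NF-kB like motif, GGG and CC with any 5 bases between, was present in promoters of 4 of the 6 matched genes (*Tlr2*, *Tlr3*, *Tlr5* and *Nod1*) and in 50.8% of all 32851 promoters. The C/EBP like motif TTNNGNAA was present for 4 (*Tlr2*, *Tlr3*, *Nod1* and *Pglyrp2*) and in 40.7% of all promoters. Neither the AP-1 motif TGANTCA nor the glucocorticoid receptor like motif, GNACA and TGTNC with any 3 bases between, was found for any of the 6, against 7.81% and 0.475% of all promoters. In the sequences above, *Nod1* held its 3 NF-kB like matches at the first start and its 1 C/EBP like match at the second, *Tlr3* held 3 and 2, and *Pglyrp2* held 2 C/EBP like matches alone.

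Between 15746119 and 20523649 reads per library were counted on genes, and values are given as CPM, the reads of a gene on a scale common to all libraries, after edgeR's TMM normalization. GF+MEV replicate 2 had a TMM factor of 0.890, against 0.978 to 1.01 in the other GF+MEV livers and 1.003 to 1.043 in GF+PBS livers. GF+PBS replicates 1 and 3, and 4 and 5, were the most alike pairs of their group, with root mean square differences of 0.283 and 0.276 on the log2 scale against 0.311 to 0.402 for the other GF+PBS pairs. *Alb*, which marks hepatocytes, was between 64586 and 83247 CPM in every liver, and the Kupffer cell marker *Clec4f* between 69.7 and 100.9 CPM. Of all genes tested, 7.64% passed the threshold of 0.05 on the adjusted p of edgeR's quasi-likelihood test, 4.12% higher and 3.52% lower in GF+MEV.

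Of the 10 sensing genes, 4 passed the test. Since the 10 were chosen with earlier results known, this count is no test against the share over all genes. *Cd14*, *Lbp* and *Pglyrp2* were higher in GF+MEV livers and *Nod1* was lower. In these 4 genes the groups did not overlap, which held for 3.94% of all genes in the higher direction and 3.45% in the lower. Over the 10 genes the log2 fold changes had a median of -0.10, beside -0.0037 over all genes tested. The change in *Cd14* was 3.51-fold, while those of *Lbp*, *Pglyrp2* and *Nod1* were smaller. None of the 5 receptor genes (*Tlr2*, *Tlr3*, *Tlr4*, *Tlr5* and *Ly96*, which encodes the partner of TLR4) passed, nor did the adaptor gene *Myd88*.

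**Figure D1:**
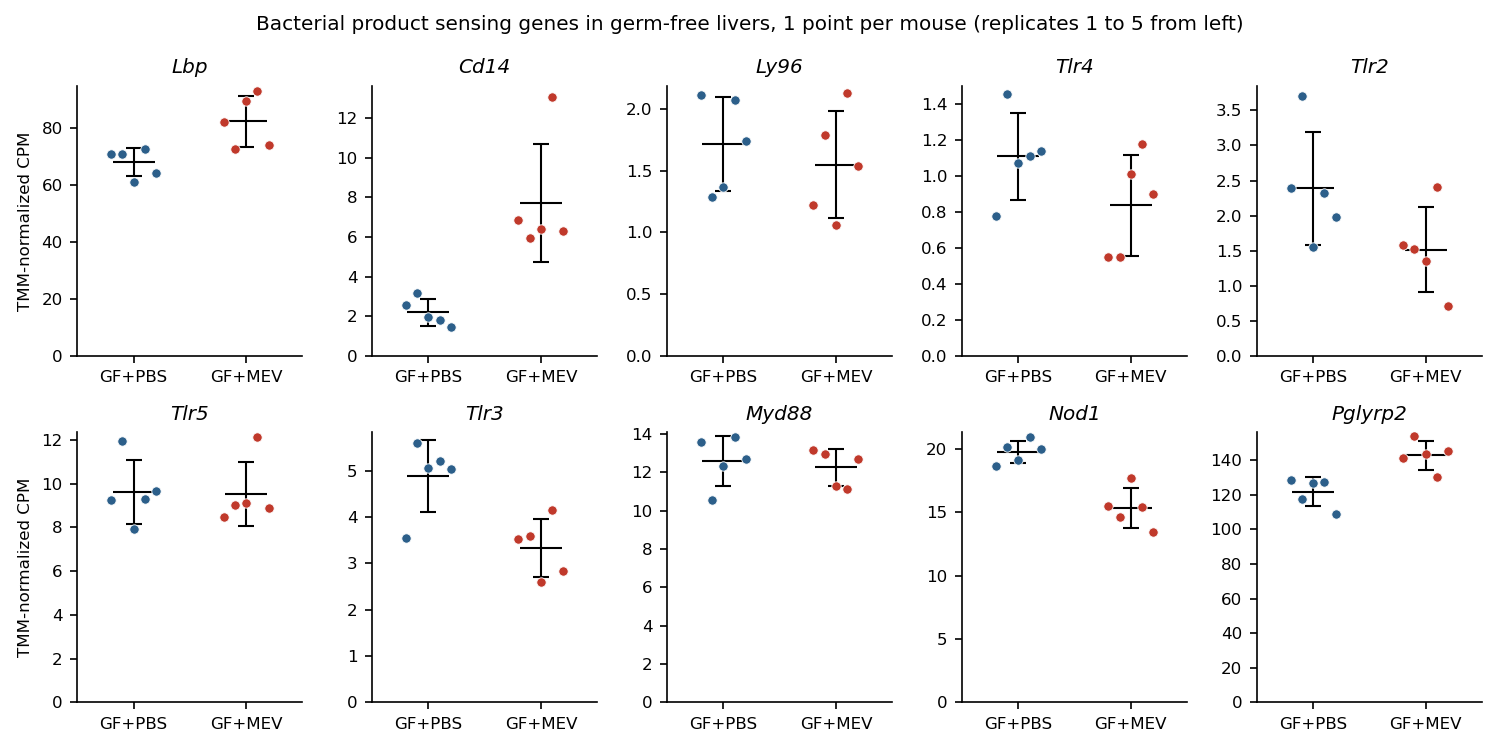
TMM-normalized CPM (vertical axes, from 0) of the 10 genes in each liver, with replicates 1 to 5 from left to right in each group. Points are mice, the horizontal bar is the mean and the error bar the SD (n = 5). *Cd14*, *Lbp* and *Pglyrp2* lie higher in all GF+MEV livers and *Nod1* lower, and GF+MEV replicate 4 stands alone at 13.02 CPM for *Cd14*.

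*Cd14* (ENSMUSG00000051439), the LPS co-receptor, was at 6.83, 5.93, 6.42, 13.02 and 6.30 CPM in GF+MEV replicates 1 to 5. In GF+PBS replicates 1 to 5 it was at 2.55, 3.19, 1.96, 1.82 and 1.44 CPM, on 24 to 57 reads per library. The lowest GF+MEV liver was thus above the highest GF+PBS liver, and replicate 4 was above the other GF+MEV livers. The means were 7.70 ± 2.99 CPM (SD, n = 5) and 2.19 ± 0.687 CPM (SD, n = 5). The log2 fold change was 1.81 (standard error 0.25, 95% interval 1.27 to 2.35, edgeR adjusted p = 0.00036). An exact two-sided permutation test over all labelings of the livers gave p = 0.00794 (n = 5 per group), the smallest it can give. Without GF+MEV replicate 4 the log2 fold change was 1.53 (edgeR adjusted p = 0.00017).

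*Lbp* (ENSMUSG00000016024, chr2:158306493-158332852, plus strand), which encodes the plasma LPS carrier, was at 82.0, 72.6, 89.4, 93.0 and 74.0 CPM in GF+MEV livers and at 70.8, 70.7, 61.1, 72.4 and 64.1 CPM in GF+PBS livers. The groups did not overlap but nearly touched, at 72.6 and 72.4 CPM. Mean expression was 82.2 ± 9.06 CPM against 67.8 ± 4.90 CPM (SD, n = 5 each), or 21.2% higher. This was a log2 fold change of 0.28 (standard error 0.079, 95% interval 0.11 to 0.45, edgeR adjusted p = 0.0452). Leaving out any one liver other than GF+MEV replicates 2 and 5 cost *Lbp* its call, with edgeR adjusted p-values up to 0.115, the highest of them without GF+PBS replicate 3. The same happened with library size alone as the scaling (log2 fold change 0.21, edgeR adjusted p = 0.195) and with upper-quartile factors (0.24, edgeR adjusted p = 0.0868).

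*Ly96* (ENSMUSG00000025779) and *Tlr4* (ENSMUSG00000039005), whose products form the LPS receptor, were near the lower limit of these libraries. *Ly96* was at 1.22, 1.79, 1.06, 2.13 and 1.54 CPM in GF+MEV livers and at 2.11, 1.29, 1.37, 2.07 and 1.74 CPM in GF+PBS livers, on 20 to 41 reads per library. *Tlr4* was at 0.549, 0.552, 1.01, 1.18 and 0.900 CPM in GF+MEV livers and at 0.777, 1.46, 1.07, 1.11 and 1.14 CPM in GF+PBS livers, on 8 to 26 reads. Both genes overlapped between the groups. For *Ly96* the log2 fold change was -0.16 (standard error 0.23, 95% interval -0.65 to 0.33, edgeR adjusted p = 0.751). For *Tlr4* the estimate was -0.38 (standard error 0.27, 95% interval -0.95 to 0.19, edgeR adjusted p = 0.452). A rise of *Tlr4* or *Ly96* as large as that of *Cd14* lay outside these intervals.

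*Tlr2* (ENSMUSG00000027995), the lipoprotein receptor gene, was at 1.59, 1.52, 1.35, 2.41 and 0.707 CPM in GF+MEV livers and at 2.39, 3.70, 1.55, 2.32 and 1.98 CPM in GF+PBS livers. GF+MEV replicates 1 and 4 lay within the GF+PBS range and the other 3 GF+MEV livers lay below all GF+PBS livers. The log2 fold change was -0.65 (standard error 0.29, 95% interval -1.26 to -0.039), which did not pass after adjustment over all genes (edgeR adjusted p = 0.203). *Tlr5* (ENSMUSG00000079164), which encodes the flagellin receptor, was at 8.48, 9.04, 9.12, 12.1 and 8.87 CPM in GF+MEV livers and at 9.27, 11.9, 7.92, 9.30 and 9.67 CPM in GF+PBS livers. Replicate 4 of GF+MEV and replicate 2 of GF+PBS were the highest of their groups. For *Tlr5* the log2 fold change was -0.012 (standard error 0.13, 95% interval -0.28 to 0.26, edgeR adjusted p = 0.973).

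*Tlr3* (ENSMUSG00000031639, chr8:45395665-45411080, minus strand), which encodes the endosomal receptor for double-stranded RNA, was at 3.54, 3.59, 2.61, 4.15 and 2.83 CPM in GF+MEV livers. It was at 3.55, 5.60, 5.06, 5.20 and 5.04 CPM in GF+PBS livers. Replicate 1 of GF+PBS fell among the GF+MEV livers and the other 4 lay above all of them. The log2 fold change was -0.55 (standard error 0.16, 95% interval -0.90 to -0.21), and the edgeR adjusted p of 0.0513 missed the threshold. Without GF+PBS replicate 1 it was -0.65 (edgeR adjusted p = 0.0194) and without GF+MEV replicate 4 it was -0.65 (edgeR adjusted p = 0.0320). Those were the only 2 of the 10 fits with 1 liver left out that passed. In the rest, edgeR adjusted p-values ran up to 0.123, the highest of them without GF+MEV replicate 3. DESeq2's Wald test on all 10 livers gave an adjusted p of 0.0230, and limma-voom, another test, gave 0.0554. Exons of *Tlr3* share 381 bases with Gm45542 on the other strand, and whether the counting used strand is not given in the sources used here.

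*Myd88* (ENSMUSG00000032508), the adaptor of most TLRs, was at 13.2, 12.97, 11.3, 11.1 and 12.7 CPM in GF+MEV livers and at 13.6, 10.5, 12.3, 13.8 and 12.7 CPM in GF+PBS livers. The GF+MEV livers all lay within the GF+PBS range. Its log2 fold change was -0.043 (standard error 0.094, 95% interval -0.24 to 0.16, edgeR adjusted p = 0.854). Exons of *Myd88* share 290 bases, 11.3% of their length, with *Acaa1a* on the other strand.

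*Nod1* (ENSMUSG00000038058, chr6:54923949-54972612, minus strand), which encodes the intracellular peptidoglycan sensor, was at 15.5, 14.6, 17.7, 15.4 and 13.4 CPM in GF+MEV livers. In GF+PBS livers it was at 18.7, 20.1, 19.1, 20.9 and 19.996 CPM. All 5 GF+MEV livers lay below the lowest GF+PBS liver. The means were 15.3 ± 1.55 CPM and 19.8 ± 0.892 CPM (SD, n = 5 each), and the mean of GF+MEV fell by 22.4%. This was a log2 fold change of -0.36 (standard error 0.081, 95% interval -0.54 to -0.19, edgeR adjusted p = 0.0127). *Nod1* remained past the threshold in each of the 10 fits that left out 1 liver. It missed it where the alike GF+PBS livers were summed in pairs (edgeR adjusted p = 0.0523) and without GF+MEV replicates 2 and 4 (edgeR adjusted p = 0.0745).

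*Pglyrp2* (ENSMUSG00000079563, chr17:32412459-32424167, minus strand), the gene of the secreted peptidoglycan amidase, was at 141 (replicate 1), 154, 144, 130.2 and 145 CPM in GF+MEV livers. It was at 129, 118, 127, 127 and 109 CPM in GF+PBS livers. The lowest GF+MEV liver, replicate 4, was above the highest GF+PBS liver by less than 1 SD of either group. The means were 142.9 ± 8.49 CPM and 121.9 ± 8.45 CPM (SD, n = 5 each), or 17.2% higher. The log2 fold change was 0.23 (standard error 0.063, 95% interval 0.094 to 0.36, edgeR adjusted p = 0.0386). Leaving out any one liver other than GF+MEV replicate 4 and GF+PBS replicate 1 cost *Pglyrp2* its call, with edgeR adjusted p-values up to 0.0990, the highest of them without GF+MEV replicate 2. Library size alone and upper-quartile factors did so too (log2 fold changes 0.15 and 0.19, edgeR adjusted p = 0.151 and 0.112). Its exons share 468 bases, 14.4% of their length, with CT485616.1 on the other strand.

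**Figure D2:**
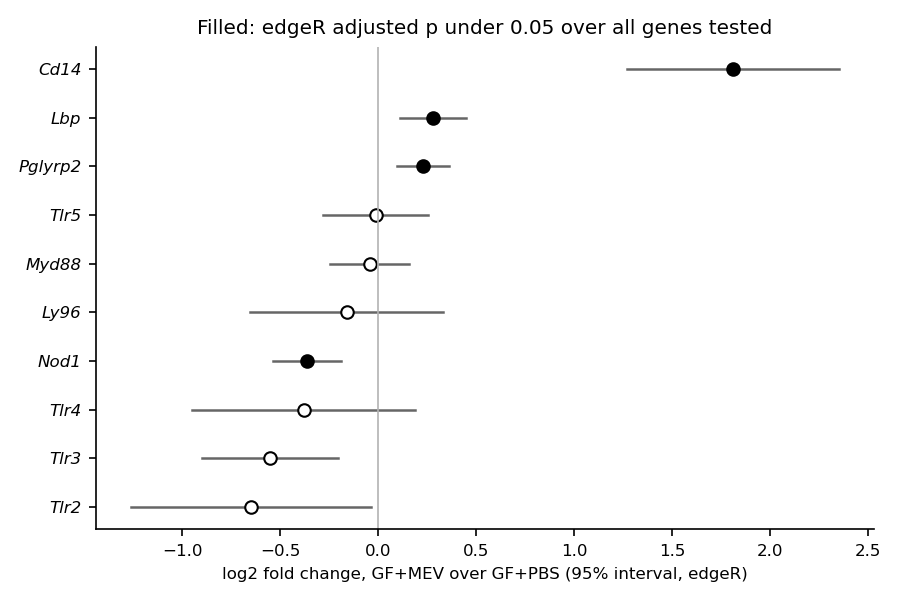
Log2 fold change of each gene, GF+MEV over GF+PBS (horizontal axis), with its 95% interval from the edgeR fit over 5 mice per group. Filled points passed an adjusted p of 0.05 over all genes tested. *Cd14* lies apart at 1.81, *Lbp* and *Pglyrp2* just above 0, *Nod1* at -0.36, and the widest intervals belong to *Tlr2*, *Tlr4* and *Cd14*.

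Macrophages carry CD14, so *Cd14* was set beside the 13 Kupffer cell and macrophage markers, all of which were tested. None of the 13 passed the test, and their median log2 fold change was -0.15. For *Clec4f*, which marks Kupffer cells, it was -0.15 (edgeR adjusted p = 0.416), and for *Cd5l*, which tissue macrophages secrete, -0.29 (edgeR adjusted p = 0.478). Without GF+MEV replicate 4, *Cd5l* passed, at -0.56 (edgeR adjusted p = 0.0332). Their summed level was 340 to 626 CPM over the GF+MEV livers and 389 to 547 CPM over the GF+PBS livers. GF+MEV replicate 4 gave the 626 CPM, and the other GF+MEV livers were between 340 and 425 CPM. That liver was the highest of its group for 12 of the 13 markers and for 7 of the 10 sensing genes, *Cd14*, *Lbp*, *Ly96* and all 4 TLR genes. *Marco*, a scavenger receptor gene of macrophages, was at 21.2 CPM there and at 1.28, 1.79, 2.173 and 1.35 CPM in the other GF+MEV livers, beside 2.88 to 5.66 CPM in GF+PBS. In GF+PBS, replicate 2 was highest for 8 of the 13 markers and for *Cd14* and the 4 TLR genes.

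Divided by the summed macrophage markers of the same liver, *Cd14* was 1.92%, 1.73%, 1.51%, 2.08% and 1.85% of that sum in GF+MEV replicates 1 to 5. It was 0.488%, 0.583%, 0.404%, 0.435% and 0.371% in GF+PBS livers. Replicate 4 stood apart less in this ratio than in the CPM of *Cd14*. The means were 1.82 ± 0.212% and 0.456 ± 0.0832% (SD, n = 5 each), a log2 difference of 2.01 (exact two-sided permutation test, p = 0.00794, n = 5 per group). With *Marco* left out and the 2 tested monocyte and neutrophil markers added, the difference was 2.002. The ratio was chosen after the values were seen. *Cd14* alone gave the same permutation p, the smallest possible, so the p of the ratio is no separate support. Which cells held the *Cd14* RNA was not measured.

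**Figure D3:**
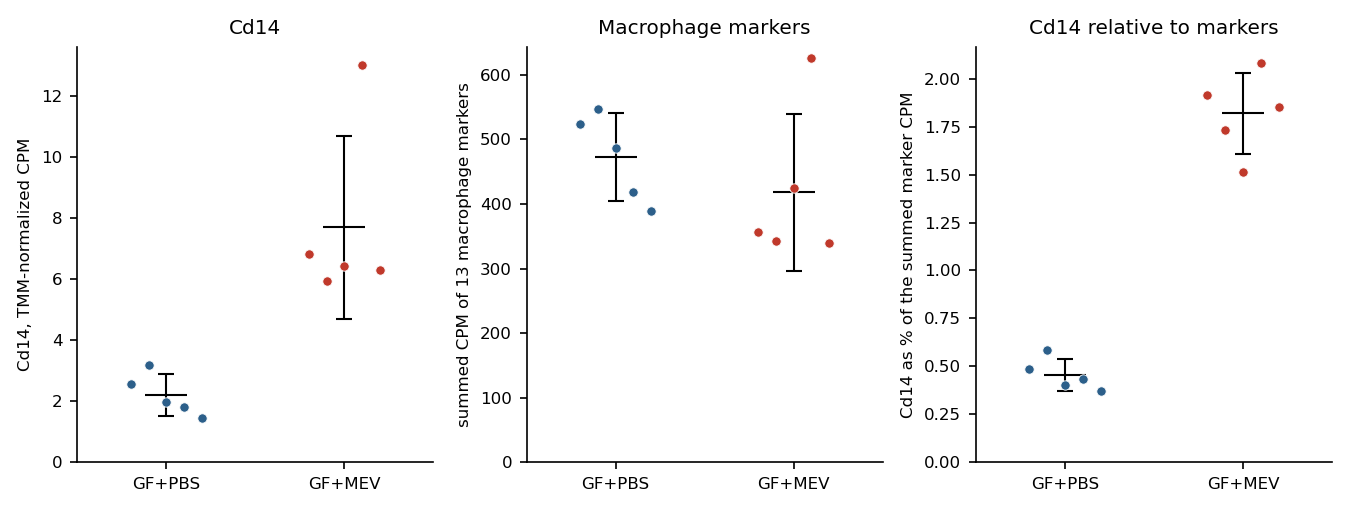
*Cd14* in TMM-normalized CPM (left), the summed CPM of 13 macrophage markers (middle) and *Cd14* as a percentage of that sum (right) in each liver, with mean and SD (n = 5) and all axes from 0. GF+MEV replicate 4 is high for *Cd14* and for the markers, at 626 CPM, and the percentage is 1.51 to 2.08 in GF+MEV livers, above the 0.371 to 0.583 of GF+PBS livers.

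Markers of other liver cells were read in the same way. Of 12 monocyte and neutrophil markers, 2 were in the table and tested, with *Plac8* at 7.90 ± 2.23 and 6.83 ± 1.22 CPM and *Csf3r* at 1.60 ± 0.531 and 1.71 ± 0.374 CPM in GF+MEV and GF+PBS (SD, n = 5 each), and neither passed. The summed level of those 2 was 6.34 to 12.6 CPM in GF+MEV and 7.14 to 10.6 CPM in GF+PBS. Among 10 sinusoidal endothelial markers, *Lyve1* rose (log2 fold change 0.84, edgeR adjusted p = 0.0401) and *Clec4g* fell (-0.48, edgeR adjusted p = 0.0214), while *Stab1* and *Stab2* were at 0.045 and 0.051. The other 6 endothelial markers lay between *Fcgr2b* at -0.45 and *Pecam1* at -0.10 without passing, and the median of the list was -0.22. The endothelial sum was 177 to 281 CPM in GF+MEV and 212 to 288 CPM in GF+PBS. None of 9 stellate cell markers passed, with *Dcn* at -0.050 and *Ecm1* at 0.0069, and their sum was 289 to 404 CPM against 335 to 361 CPM. Of 10 lymphocyte markers 4 were tested, and the B cell receptor genes *Cd79a* (-0.87, edgeR adjusted p = 0.0071) and *Cd79b* (-0.76, edgeR adjusted p = 0.0316) fell, with a sum of 3.86 to 4.88 CPM in GF+MEV and 6.61 to 8.44 CPM in GF+PBS. Of 6 cholangiocyte markers 3 were tested, and *Krt19* rose (3.87, edgeR adjusted p = 0.00063), on 6 to 13 reads per library in GF+PBS. Its level ran from 0.964 to 16.8 CPM over the GF+MEV livers and from 0.303 to 0.781 CPM over the GF+PBS livers. *Spp1* was at 0.52 (edgeR adjusted p = 0.133) and *Sox9* at -0.98 (edgeR adjusted p = 0.103). The sum of the 3 was 28.1 to 79.3 CPM against 23.2 to 29.7 CPM. In 10 hepatocyte markers, *Hnf4a* (0.45, edgeR adjusted p = 0.00036) and *Cps1* (0.38, edgeR adjusted p = 0.0414) rose, while *Alb* and *Trf* were at -0.034 and 0.13, although *Trf* shares 63.5% of its exon bases with Gm20425. With 1 liver left out, *Lyve1* lost its call in 5 of 10 fits, *Cd79b* in 6, *Clec4g* in 3 and *Cps1* in 8. The part of these cell types in the results for *Lbp*, *Pglyrp2*, *Nod1* and *Cd14* was not tested.

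Levels between genes were compared as CPM per kilobase of exon, averaged over all 10 livers. *Pglyrp2* was highest at 40.9 ± 4.21 (SD, n = 10), followed by *Lbp* at 15.5 ± 2.12, and both of these hepatocyte products lay above every other gene of the 10 in every liver. *Myd88* (4.82 ± 0.429), *Nod1* (3.45 ± 0.516), *Cd14* (2.86 ± 2.05), *Tlr5* (1.998 ± 0.289) and *Ly96* (1.60 ± 0.386) came next. The endosomal and surface receptors *Tlr3* (0.791 ± 0.203), *Tlr2* (0.648 ± 0.271) and *Tlr4* (0.176 ± 0.0515) were lowest. From *Myd88* down, the ranges of neighbours in this order overlapped over the 10 livers. Within the same liver, *Myd88* was above *Nod1*, *Ly96* above *Tlr3* and *Tlr2* above *Tlr4* in 10 of 10 livers. *Tlr5* was above *Ly96* in 8 and *Tlr3* above *Tlr2* in 7, while *Nod1* was above *Cd14* in 5 and *Cd14* above *Tlr5* in 5. The mean level of *Pglyrp2* was above that of 91.4% of all genes tested and that of *Tlr4* above 1.95%. *Cd14* ran from 0.832 to 7.52 CPM per kilobase over the livers, a range that took in the means of *Myd88*, *Nod1*, *Tlr5* and *Ly96*.

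**Figure D4:**
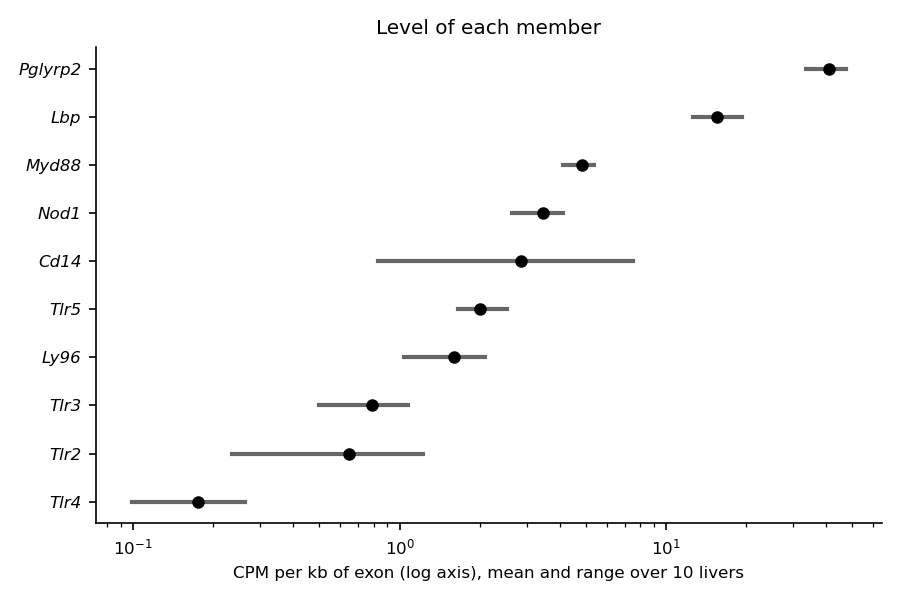
Level of each gene in CPM per kilobase of exon (horizontal log axis). Points are means and lines the range over 10 livers. *Pglyrp2* (40.9) and *Lbp* (15.5) lie apart at the top, and *Tlr4* (0.176) is lowest.

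The wider pathway was read in lists of 112 further genes, also chosen with earlier results of these data known. Of these, 81 were in the table and tested. Of the 81, 7 were higher and 5 lower in GF+MEV, where 4.12% of all genes tested were higher and 3.52% lower, and the median log2 fold change was 0.024. The list of negative regulators of TLR signalling held 5 of those 12. *Zfp36*, which encodes an mRNA-destabilizing protein, rose from 101.7 ± 13.8 to 222 ± 25.1 CPM (SD, n = 5 each, log2 fold change 1.13, edgeR adjusted p = 4.4e-06). *Nfkbia*, the gene of the NF-kB inhibitor IkBα, rose from 36.4 ± 2.88 to 68.7 ± 2.11 CPM (SD, n = 5 each, 0.92, edgeR adjusted p = 3.5e-07). *Tnfaip3*, which encodes the ubiquitin-editing enzyme A20, rose as well (0.56, edgeR adjusted p = 0.0275), whereas *Bcl3*, an atypical IkB gene (-0.60, edgeR adjusted p = 0.0054), and *Sigirr*, an inhibitory receptor gene (-0.38, edgeR adjusted p = 0.0053), fell. The 5 genes did not overlap between the groups, as was so for 3.94% of all genes in the higher direction and 3.45% in the lower. The other 9 tested members of that list did not pass.

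Among 15 tested TIR adaptors and proximal kinases, *Ticam1*, the adaptor of TLR3 (0.35, edgeR adjusted p = 0.0251), and *Pik3ap1*, a phosphoinositide 3-kinase adaptor (0.28, edgeR adjusted p = 0.0316), rose on the log2 scale. *Tab1*, a partner of the kinase TAK1, fell (-0.39, edgeR adjusted p = 0.0338). Of 12 NF-kB and IRF effectors, the NF-kB subunit gene *Rel* rose (0.70, edgeR adjusted p = 0.0202), while the IkB kinase genes *Chuk* and *Ikbkb* were at 0.066 and 0.029. Of 8 tested NOD, peptidoglycan and inflammasome genes, *Slc15a4*, an endolysosomal peptide transporter, rose from 17.8 ± 3.62 to 27.5 ± 1.57 CPM (SD, n = 5 each, 0.62, edgeR adjusted p = 0.0038). *Xiap* and *Gsdmd* of the same list were at 0.13 and 0.063. Leaving out single livers cost 6 of the 12 genes their call in some fits: *Cd36* in 5 of 10, *Pik3ap1* in 4, *Rel* in 2, *Tab1* in 7, *Ticam1* in 5 and *Tnfaip3* in 4. GF+PBS replicate 3 was among the livers whose absence did so for each of the 6. Exons of *Cxcl10*, *Bcl3*, *Zfp36* and *Slc15a4* share between 3.60% and 8.04% of their bases with a gene on the other strand.

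No further gene of a TLR or MD-2 like protein passed among the 5 tested, with *Tlr12* at 12.8 ± 2.81 and 12.7 ± 0.929 CPM and *Ly86*, the MD-2 relative, at 3.35 ± 0.662 and 3.88 ± 0.470 CPM in GF+MEV and GF+PBS (SD, n = 5 each). None of 6 TLR chaperone genes passed, with *Hsp90b1* at a log2 fold change of 0.080 and *Lman1* at -0.012. Of 10 tested genes of LPS binding, uptake and detoxification, the scavenger receptor gene *Cd36* fell (-0.40, edgeR adjusted p = 0.0275), and *Scarb1*, a lipoprotein receptor gene, was at 0.085. *Cxcl10*, a chemokine gene, fell from 3.82 ± 1.33 to 1.47 ± 0.524 CPM (SD, n = 5 each, log2 fold change -1.36, edgeR adjusted p = 0.0074), the one call among 11 tested LPS-induced genes. The median of that list was -0.32, and *Steap4* and *Saa1* were at 0.30 and 0.28 without passing. The other 12 genes of the list of 23, among them *Tnf*, *Il1b* and *Il6*, were not in the table and could not be tested.

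**Figure D5:**
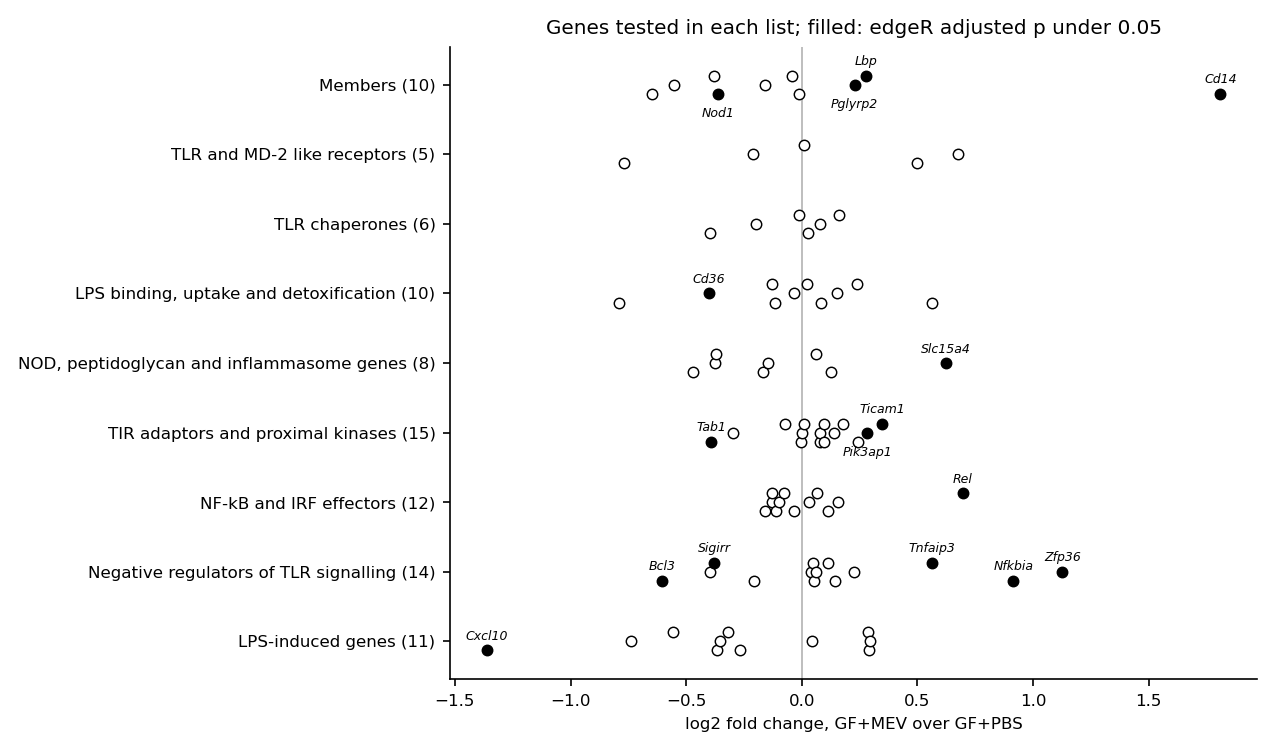
Log2 fold change, GF+MEV over GF+PBS (horizontal axis), of the 10 sensing genes, written as members, and of the tested genes of 8 pathway lists, whose number stands in brackets. Each point is a gene, set at staggered heights within its list, and filled points passed an edgeR adjusted p of 0.05. *Cd14* at 1.81 lies farthest to the right and *Cxcl10* at -1.36 farthest to the left.

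Genes whose pattern over the 10 livers was most like that of each called gene were found by the root mean square difference of centred log2 CPM. Closest to *Cd14* were *Jdp2*, an AP-1 family repressor gene, at 0.227, *Rasgef1b*, a guanine nucleotide exchange factor gene, at 0.375, and *Itprip* at 0.390, where the median over all genes was 0.972. *Jdp2* was at 3.76 ± 0.861 CPM in GF+MEV and 1.04 ± 0.295 CPM in GF+PBS (SD, n = 5 each), and *Rasgef1b* at 22.0 ± 1.96 and 7.27 ± 1.49 CPM. Closest to *Lbp* were *Armcx5* (0.0875), *Gtpbp2* (0.0878) and *Pik3r4* (0.0896), against a median of 0.250. Closest to *Nod1* were *Fhod1* (0.0676), *Fgfr3* (0.0788) and *Arhgap45* (0.0793), against 0.270. Closest to *Pglyrp2* were *Cyp27a1*, a sterol hydroxylase gene of bile acid synthesis (0.0494), *L3mbtl2* (0.0558) and *Aldh16a1* (0.0580), against 0.225. A low value between genes of small change shows that both were nearly flat over the livers. The difference between the groups was not removed before this comparison. The genes closest to *Cd14* rose by a like amount, with log2 fold changes of 1.85 for *Jdp2*, 1.59 for *Rasgef1b* and 1.69 for *Itprip*. Likeness between livers within a group was not tested.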

How the data were processed

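Liver RNA of 10 germ-free mice was analysed, 5 GF+MEV and 5 GF+PBS, grouped by the sample labels. Per the study's methods and the submitters' processing notes, the authors mapped reads with STAR 2.7.3a to GRCm38, counted them per gene with HTSeq and removed genes below 20 counts over the samples. The deposited values are raw counts per Ensembl gene, without normalization. A further 5 columns matched no described sample and were not used. Over all columns, used or not, each deposited gene reached at least 20 counts in some column. Authors' test results were not used.

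Symbols, positions and exon lengths came from GENCODE (GRCm38), with 5 of 12148 identifiers unmatched, and promoters from RefSeq. Genes with at least 20 counts over the 10 libraries (12147) were fitted with edgeR 4.0.16 in R 4.3.3 (TMM factors, quasi-likelihood test on the group alone, two-sided, Benjamini-Hochberg adjustment over all genes). The study used DESeq2, which was an alternative here (1.42.0), as was limma-voom (limma 3.58.1). Standard errors and intervals were derived from edgeR's F statistic. Exact permutation tests enumerated all labelings on log2 CPM with a prior count of 2. The fit was tested on simulated counts whose changes were larger than those of *Lbp*, *Pglyrp2* and *Nod1*, so recovery at their size was not tested.

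The members and lists were chosen with earlier results of these data known. Named were all members, called genes of each pathway list (or its 2 most abundant, where fewer than 2 were called), called and the 2 most abundant genes of each marker list, and 3 genes nearest each called member. *Marco*, *Sox9*, *Fcgr2b* and *Pecam1* were named after their values were seen, and 1 gene that the rule names is not reported here.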

Additional observations from a re-analysis of the deposited data

Results flagged for a closer look

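Groups of 5 values were checked for a highest or lowest liver that stood apart from the others of its group by Dixon's ratio, with a critical value of 0.71. Of 126 groups checked, 12 were past it, where chance gives about 6.3. The part of any one liver in these values was not tested beyond the fits that left it out.

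In GF+MEV replicate 4, *Cd14* was at 13.02 CPM (others 5.93 to 6.83), *Tlr5* at 12.1 CPM (others 8.48 to 9.12) and *Steap4* at 175 CPM (others 102 to 119). In GF+MEV replicate 2, *Spp1* was at 61.1 CPM (others 25.7 to 33.9), *Trf* at 12610 CPM (others 14474 to 14987) and the TMM factor at 0.890 (others 0.978 to 1.01). In GF+MEV replicate 3, *Stab1* was at 60.6 CPM (others 38.8 to 43.2).

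Among GF+PBS livers, *Tlr3* was at 3.55 CPM in replicate 1 (others 5.04 to 5.60), and *Tlr12* at 11.1 CPM in replicate 3 (others 12.8 to 13.4). *Ticam1* was at 21.4 CPM in replicate 4 (others 15.5 to 17.2), and *Zfp36* at 77.6 CPM in replicate 2 (others 105 to 111). The summed stellate cell markers were at 335 CPM in replicate 2 (others 359 to 361).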

How the results depend on the processing

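*Cd14* passed the threshold in all 20 refits, with log2 fold changes from 1.53 to 1.98, and *Nod1* in 18 of 20. *Lbp* and *Pglyrp2* passed in 7 of 20 each, and *Tlr3*, which missed it, gained it in 7 of 20. *Tlr2*, *Tlr4*, *Tlr5*, *Ly96* and *Myd88* passed in no alternative. *Tlr4* had no value where at least 10 counts in every library were asked.

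Of the 10 sensing genes, 4 were called, 2 to 4 with 1 liver left out, 1 with the alike GF+PBS livers summed in pairs and 2 without GF+MEV replicates 2 and 4, an alternative chosen after seeing the data. With upper-quartile factors and with library size alone 3 were called, 1 higher and 2 lower, in place of 3 higher and 1 lower. No pairing by replicate number is given in the labels. Same-numbered livers correlated at 0.166, -0.084, -0.052, -0.188 and 0.059 in their deviations from the group means. The highest correlation with a different number was 0.102, 0.058, 0.105, 0.121 and 0.0551, below the same-numbered value for replicates 1 and 5 alone. With the replicate block the members called were 2, and *Lbp* (edgeR adjusted p = 0.0677) and *Pglyrp2* (edgeR adjusted p = 0.0978) were the calls lost. Over all genes the calls numbered 928, and 792 with the block, 561 with the alike livers summed, 696 to 926 with 1 liver left out, 1201 with DESeq2 and 946 with limma-voom. The share of calls that were higher was 53.9%, against 41.2% with upper-quartile factors and 32.5% with library size alone, scalings that moved the median log2 fold change to -0.046 and -0.078. Of the 81 pathway genes tested, 12 were called, 7 to 14 with 1 liver left out (7 without GF+PBS replicate 3) and 8 with the block. The share of these calls that were higher was 58.3%, against 36.4% with library size alone. The cause of these moves was not tested.

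In 13 genes the sign turned in some alternative, never past the threshold (lowest edgeR adjusted p 0.518). With library size alone the values were -0.066 for *Tlr12*, -0.011 for *Chuk*, -0.046 for *Ikbkb*, -0.010 for *Gsdmd*, -0.027 for *Stab1*, -0.019 for *Stab2* and -0.063 for *Ecm1*. With upper-quartile factors they were -0.034 for *Tlr12*, -0.011 for *Ikbkb* and -0.036 for *Ecm1*. With limma-voom they were -0.012 for *Tlr12* and -0.00097 for *Ecm1*, and with the replicate block -0.0087 and -0.0020. Without GF+MEV replicates 2 and 4 they were -0.069 for *Saa1*, 0.041 for *Dcn* and 0.012 for *Alb*, and with the alike livers summed 0.0024 for *Lman1*. With 1 liver left out, *Tlr5* ran from -0.12 to 0.077, *Tlr12* from -0.13 to 0.067, *Ikbkb* from -0.017 to 0.073, *Csf3r* from -0.26 to 0.039, *Stab1* from -0.092 to 0.092, *Stab2* from -0.046 to 0.11, *Ecm1* from -0.048 to 0.063, *Dcn* from -0.11 to 0.028, *Alb* from -0.068 to 0.020 and *Lman1* from -0.028 to 0.0090.

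Depth limits *Tlr4* and *Ly96* most, which had under 50 counts in every library, while 5 of the 10 genes had at least 100 in each. *Tlr2* was on 11 to 66 counts per library, and *Cd14* on 24 to 57 in GF+PBS livers. Changes in the share of a cell type cannot be told apart from changes within cells in whole liver.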
